A study of Capra hircus with 6 samples.

Results

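The 10 immediate early genes FOS, FOSB, JUN, JUNB, EGR1, EGR2, EGR3, NR4A1, ARC and NPAS4 were followed one by one in the goat hypothalamus. They were chosen by symbol from the 20225 genes of the mRNA table, with earlier results of these libraries known, and each value is the summed FPKM of all transcripts of the gene in a library (fragments scaled by transcript length and by the mapped fragments of the library). All 10 were found, each with 1 transcript in the table. The hypothalamus came from 6 female Anhuai goats, with 1 library per goat. The 3 pubertal goats were 4.5 to 5.0 months old and were taken in the late follicular phase of the ovary, and the 3 prepubertal goats were 2.5 to 3.0 months old. Stage, age and ovarian phase therefore cannot be told apart.

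Immediate early genes are transcribed within minutes of a stimulus from factors that are already present in the cell, so their induction needs no new protein. Growth factors, hormones, calcium entry and stress induce many of them in most cell types, and synaptic activity induces them in neurons, where FOS is widely used as a mark of recently active cells. FOS, FOSB, JUN and JUNB encode subunits of the AP-1 factor, EGR1, EGR2 and EGR3 encode zinc finger factors and NR4A1 encodes an orphan nuclear receptor. ARC, which acts at the postsynapse, and NPAS4, a factor induced by calcium entry, are the more neuronal members.

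FPKM tables give no counts, and no depth per value was computed from them. The median of log2(FPKM + 1) over the 14081 genes with a mean of at least 1 FPKM lay between 3.80 and 3.83 in the 6 libraries. The tissue label was checked against hypothalamic markers: SIM1, a factor of the paraventricular region, was at 3.03 to 4.11 FPKM and NR5A1, a factor of the ventromedial nucleus, at 1.80 to 4.73 FPKM, whereas AVP, which encodes vasopressin, was listed at 0 in all 6 libraries. NKX2-1, RAX, HMX2, HMX3 and OXT were not matched by symbol. Pubertal replicate 3 stood apart in genes of neighbouring tissues. TTR, which encodes the transthyretin secreted by the choroid plexus, was at 309 FPKM there and at 1.14 to 53.4 FPKM in the other 5 libraries. ACTA2, the smooth muscle actin, was at 70.7 FPKM there and at 11.6 to 18.0 FPKM in the others.

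All 10 genes had a higher mean in the pubertal than in the prepubertal libraries, EGR3 through pubertal replicate 3 alone. That library alone also carried EGR3 past the minimum mean of 0.1 FPKM, so its direction was set by the filter. For 4 of the 10 (FOS, FOSB, JUNB and NR4A1) every pubertal library was above every prepubertal library. Over the 16397 genes tested, 5.91% were without overlap in this direction and 3.84% in the other, in which none of the 10 lay. In limma on log2(FPKM + 1), none of the 10 had an adjusted p under 0.05, and 0% of all genes did. Their adjusted p lay between 0.318 and 0.962, and the lowest over all genes was 0.230. At an unadjusted p under 0.05, limma called 5 of the 10, all higher in the pubertal libraries, beside 3.51% of all genes in that direction and 1.65% in the other. Their median difference between the stages was 0.46 on the log2(FPKM + 1) scale, or 0.37 without EGR3, and the median over all genes tested was -0.00065. As the genes were chosen with results of these libraries known, these counts describe them and were not tested. This scale understates differences of genes at low FPKM.

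**Figure D1:**
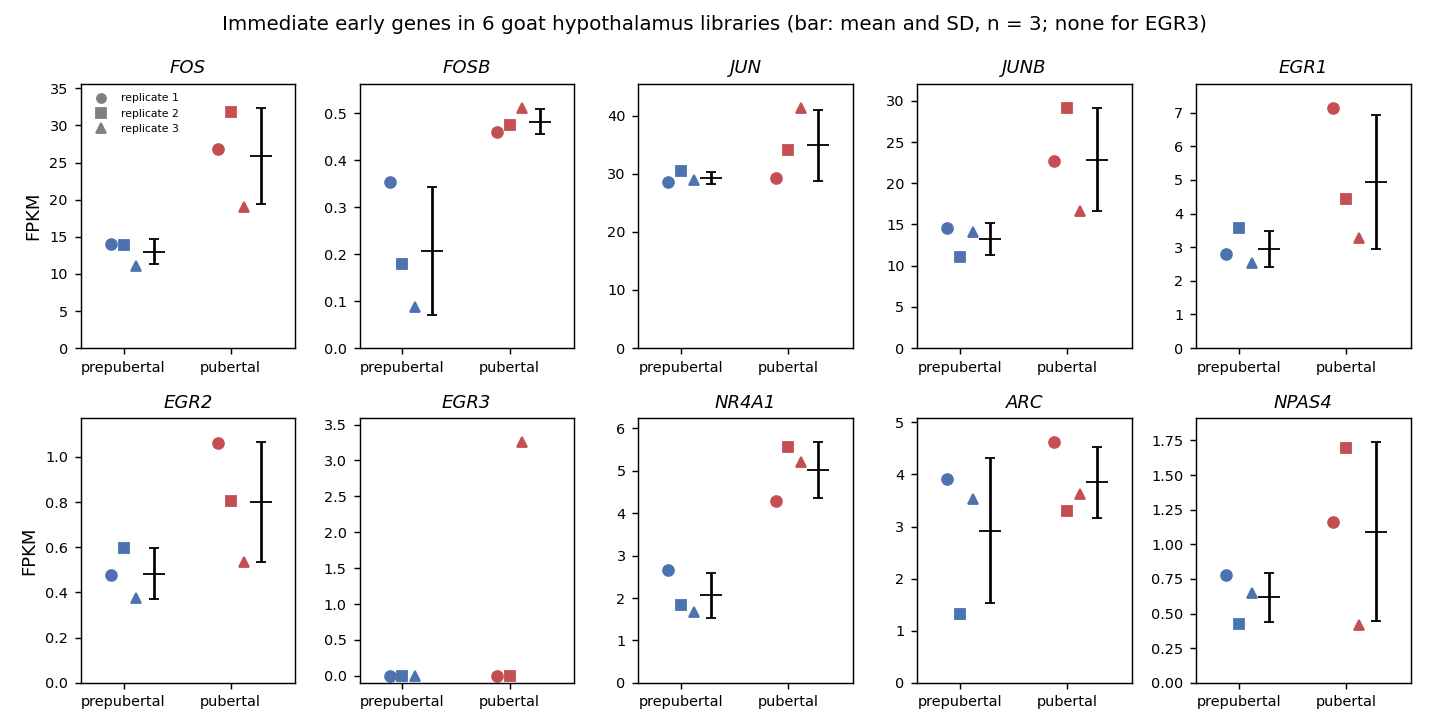
FPKM of each gene (vertical axis, from 0) in the 3 prepubertal (blue) and 3 pubertal (red) libraries, with the marker shape giving the replicate number and the black bar the mean and SD of 3 libraries, which is left out for EGR3. The stages are apart in FOS, FOSB, JUNB and NR4A1 and overlap in JUN, EGR1, EGR2, ARC and NPAS4, and EGR3 is above 0 in 1 library.

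FOS, the AP-1 subunit most used as a mark of activity, was at 26.8, 31.9 and 19.0 FPKM in the pubertal libraries and 14.0, 13.9 and 11.1 FPKM in the prepubertal ones, each in the order of replicates 1, 2 and 3 that is kept for all genes. The stages did not overlap, and the lowest pubertal library was replicate 3. The means were 25.9 ± 6.49 and 13.0 ± 1.66 FPKM (SD, n = 3 each), a ratio of 1.99, and the log2 difference was 0.92 (SE 0.18, adjusted p = 0.660 in limma). FOSB, its close relative, was far lower, at 0.459, 0.476 and 0.512 FPKM in the pubertal and 0.354, 0.180 and 0.0871 FPKM in the prepubertal libraries. The pubertal libraries lay close together and the prepubertal ones were spread out below them. The means were 0.482 ± 0.0270 and 0.207 ± 0.136 FPKM (SD, n = 3 each), a ratio of 2.33, with a log2 difference of 0.30 (SE 0.12, adjusted p = 0.922 in limma).

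JUNB, the other partner whose stages were apart, was at 22.7, 29.2 and 16.7 FPKM in the pubertal and 14.6, 11.01 and 14.1 FPKM in the prepubertal libraries. Pubertal replicate 2 was the highest, as for FOS, and the gap between the stages lay between pubertal replicate 3 and prepubertal replicate 1. The means were 22.9 ± 6.26 and 13.2 ± 1.94 FPKM (SD, n = 3 each), a ratio of 1.73 and a log2 difference of 0.72 (SE 0.20, adjusted p = 0.779 in limma). JUN, the partner of FOS in the classical AP-1 dimer, was at 29.2, 34.1 and 41.4 FPKM in the pubertal and 28.5, 30.4 and 29.0 FPKM in the prepubertal libraries. Its stages overlapped through pubertal replicate 1, and the highest library was pubertal replicate 3. The ratio of the means, 34.9 ± 6.12 to 29.3 ± 1.01 FPKM (SD, n = 3 each), was 1.19. The log2 difference of JUN was 0.23 with all libraries and 0.10 without pubertal replicate 3.

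EGR1, a zinc finger factor that acts on many genes of growth and plasticity, was at 7.15, 4.43 and 3.26 FPKM in the pubertal and 2.79, 3.56 and 2.52 FPKM in the prepubertal libraries. Pubertal replicate 1 was the highest, and the stages overlapped because pubertal replicate 3 lay below prepubertal replicate 2. The means were 4.95 ± 1.99 and 2.95 ± 0.542 FPKM (SD, n = 3 each), a ratio of 1.67, with a log2 difference of 0.55 (SE 0.23, adjusted p = 0.958 in limma) that was 0.29 without pubertal replicate 1. EGR2, a paralog with known roles in myelinating cells, was at 1.06, 0.806 and 0.533 FPKM in the pubertal and 0.478, 0.597 and 0.374 FPKM in the prepubertal libraries. The order of the 6 libraries was the same as in EGR1. The ratio of the EGR2 means was 1.66, and the log2 difference was 0.27 (SE 0.14, adjusted p = 0.962 in limma), or 0.17 without pubertal replicate 1.

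EGR3, the third member of the family here, was listed at 0 in 5 libraries and at 3.26 FPKM in pubertal replicate 3. Its transcript in the table is 267 nt long. Among the 151 transcripts of at most 300 nt that reached 3 FPKM in some library, 30 were listed at 0 in at least 1 other, whereas this held for 99 of the 11581 transcripts longer than 1500 nt. No stage value is given for EGR3, and its log2 difference rests on 1 library.

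NR4A1, the orphan receptor also called Nur77, differed most between the stages relative to its spread. It was at 4.29, 5.56 and 5.20 FPKM in the pubertal and at 2.67, 1.85 and 1.68 FPKM in the prepubertal libraries. The stages were well apart, with no library near those of the other stage. The means were 5.01 ± 0.655 and 2.07 ± 0.531 FPKM (SD, n = 3 each), a ratio of 2.43. The log2 difference was 0.98 (SE 0.16, adjusted p = 0.318 in limma). It lay between 0.89 and 1.12 when each library was left out in turn.

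The neuronal members overlapped between the stages. ARC was at 4.62, 3.29 and 3.63 FPKM in the pubertal and at 3.91, 1.33 and 3.52 FPKM in the prepubertal libraries. A single library, prepubertal replicate 2, was low, and without it the log2 difference of ARC was 0.03 in place of 0.37 (SE 0.27, adjusted p = 0.962 in limma). NPAS4 was at 1.16, 1.70 and 0.414 FPKM in the pubertal and at 0.777, 0.428 and 0.651 FPKM in the prepubertal libraries, so that the highest and the lowest value were both pubertal. The log2 difference of NPAS4 was 0.33 (SE 0.23, adjusted p = 0.962 in limma), 0.12 without pubertal replicate 2 and 0.58 without pubertal replicate 3.

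In class means of log2 values, the general members FOS, JUNB and EGR1 differed more between the stages than the neuronal members ARC and NPAS4. By the ratio of stage means the classes were mixed, and neither measure was tested. By the ratio of stage means, NPAS4 (1.09 ± 0.644 against 0.619 ± 0.176 FPKM, SD, n = 3 each) was at 1.76, above JUNB (1.73) and EGR1 (1.67) and below FOS (1.99), and ARC (3.85 ± 0.686 against 2.92 ± 1.39 FPKM) was at 1.32. On the log2(FPKM + 1) scale, which compresses the low values of NPAS4, FOS, JUNB and EGR1 as a class differed more. The other general genes did not all exceed the neuronal ones. Log2 differences were 0.23 for JUN, 0.27 for EGR2 and 0.30 for FOSB, against 0.37 for ARC and 0.33 for NPAS4. NR4A1, at 0.98, was above both neuronal genes, leaving out EGR3. The mean of log2(FPKM + 1) over the 3 general members was 3.93 ± 0.35 in the pubertal and 3.20 ± 0.08 in the prepubertal libraries (SD, n = 3 each), a difference of 0.73. Over the 2 neuronal members it was 1.64 ± 0.25 and 1.29 ± 0.37, a difference of 0.35. The general mean minus the neuronal mean was 2.33, 2.36 and 2.16 in pubertal replicates 1, 2 and 3 and 1.70, 2.36 and 1.66 in prepubertal replicates 1, 2 and 3. The stages overlapped in this quantity because of prepubertal replicate 2, the library in which ARC was low. The gap between the classes was 0.38, and it was 0.25 with a pseudocount of 0.1 and 0.22 with 0.01. It lay between 0.26 and 0.61 with each library left out in turn. The cells that express either class were not identified. In bulk tissue fewer cells that express a gene and less RNA per cell cannot be told apart.

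**Figure D2:**
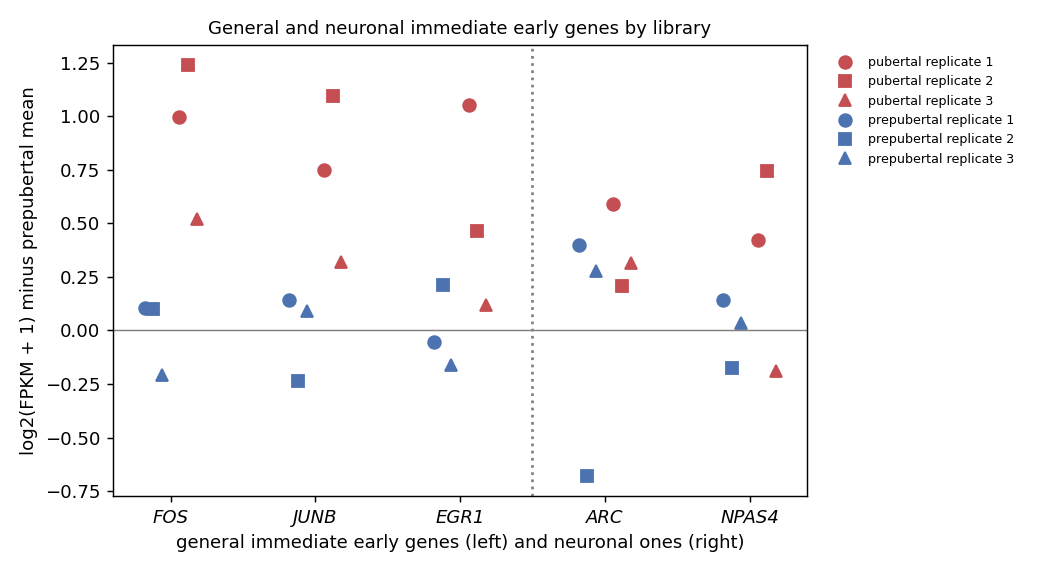
log2(FPKM + 1) of 3 general and 2 neuronal immediate early genes in each library, minus the prepubertal mean of the gene (vertical axis, 0 is that mean), with the prepubertal libraries in blue and the pubertal ones in red. FOS and JUNB separate the stages, whereas EGR1, ARC and NPAS4 mix them. Prepubertal replicate 2 is lowest for ARC and pubertal replicate 3 is lowest for NPAS4.

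In level, which FPKM scales by transcript length, JUN was the highest, with a mean of 32.1 FPKM over the 6 libraries, and it was above FOS in 6 of 6. FOS (19.5 FPKM) and JUNB (18.0 FPKM) came next and did not differ in order beyond their spread, with FOS above in 4 of 6. A step then led to EGR1 (3.95 FPKM), NR4A1 (3.54 FPKM) and ARC (3.38 FPKM), neighbours whose order held in 4 of 6 and 3 of 6 libraries. JUNB was above EGR1 and ARC was above NPAS4 in 6 of 6 libraries. NPAS4 (0.855 FPKM), EGR2 (0.642 FPKM) and FOSB (0.345 FPKM) were the lowest, leaving out EGR3. The listed transcripts are 466 nt long for JUNB, 511 nt for ARC and 651 nt for JUN, against 2124 nt for FOS and 3307 nt for NPAS4. Whether the short models cover the whole gene was not tested.

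By library, the highest value was in pubertal replicate 1 for 3 genes, in pubertal replicate 2 for 4 and in pubertal replicate 3 for 3, and in no prepubertal library for any of the 10. Over the 9 genes other than EGR3, the mean rank (1 is the highest library) was 2.11, 1.89 and 3 in pubertal replicates 1, 2 and 3 and 4.11, 4.56 and 5.33 in prepubertal replicates 1, 2 and 3. Pubertal replicate 3 divided the genes. FOS, JUNB, EGR1, EGR2 and NPAS4 were lowest there among the pubertal libraries, whereas JUN, FOSB and EGR3 were highest there. This is also the library with high TTR and ACTA2, whose part in these values was not tested.

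The genes varied together over the 6 libraries more in sign than in detail. Of the 45 pairs, 38 (84.4%) had a Pearson r above 0 on log2(FPKM + 1), with a median of 0.54, and 9 (20%) reached 0.8. Over all 134422606 pairs of tested genes the median was -0.002, and 4.36% reached 0.8. With the stage mean subtracted from each gene, the median over the 45 pairs was 0.15, 27 (60%) were above 0 and 5 (11.1%) reached 0.8, beside 6.91% of all pairs. Without EGR3, the median over 36 pairs was 0.57 as measured and 0.19 with the stage mean subtracted. Pairs share libraries and genes and are not independent. All 10 genes had a higher pubertal mean and were chosen with results of these libraries known. The values of r as measured therefore include this shared stage difference.

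The closest pair was EGR1 and EGR2, with r = 0.99 over the 6 libraries (exact permutation of the 720 pairings, two-sided p = 0.00139, adjusted 0.0625 over 45 pairs) and Spearman's rho of 1 (exact permutation p = 0.00278, adjusted 0.125). The relation remained at r = 0.98 without the 2 libraries farthest from the median and was 0.97 with the stage mean subtracted. JUNB and NPAS4 had r = 0.89 (exact permutation p = 0.0181, adjusted 0.203) and rho of 0.66 (p = 0.175), and without the 2 farthest libraries r was 0.17, so that the relation rests on those libraries. Their r was 0.98 with the stage mean subtracted. No pair had an adjusted p under 0.05, and 8 of the 45 had an unadjusted exact p under 0.05 for r. The permutation exchanges libraries between the stages, so a shared stage difference can lower these p-values. Among the 8 were pairs whose genes both separate the stages: FOS with JUNB, FOS with NR4A1, FOSB with NR4A1 and JUNB with NR4A1. The share of all gene pairs at this threshold was not computed.

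FOS, FOSB, JUNB and NR4A1 fall into separate clusters by stage, so their relations to each other are given only as deviations from the stage means. There, FOSB and NR4A1 had r = 0.85, FOS and JUNB 0.71, and FOS and NR4A1 0.28. JUN went the other way from EGR1, with r = -0.83 as deviations from the stage means and -0.05 over the libraries as measured. JUN and EGR3 had r = 0.89, which rests on pubertal replicate 3, the library in which EGR3 is above 0. The neuronal pair ARC and NPAS4 had r = 0.43, and 0.27 with the stage mean subtracted, while FOS had r = 0.83 with NPAS4 as deviations from the stage means.

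**Figure D3:**
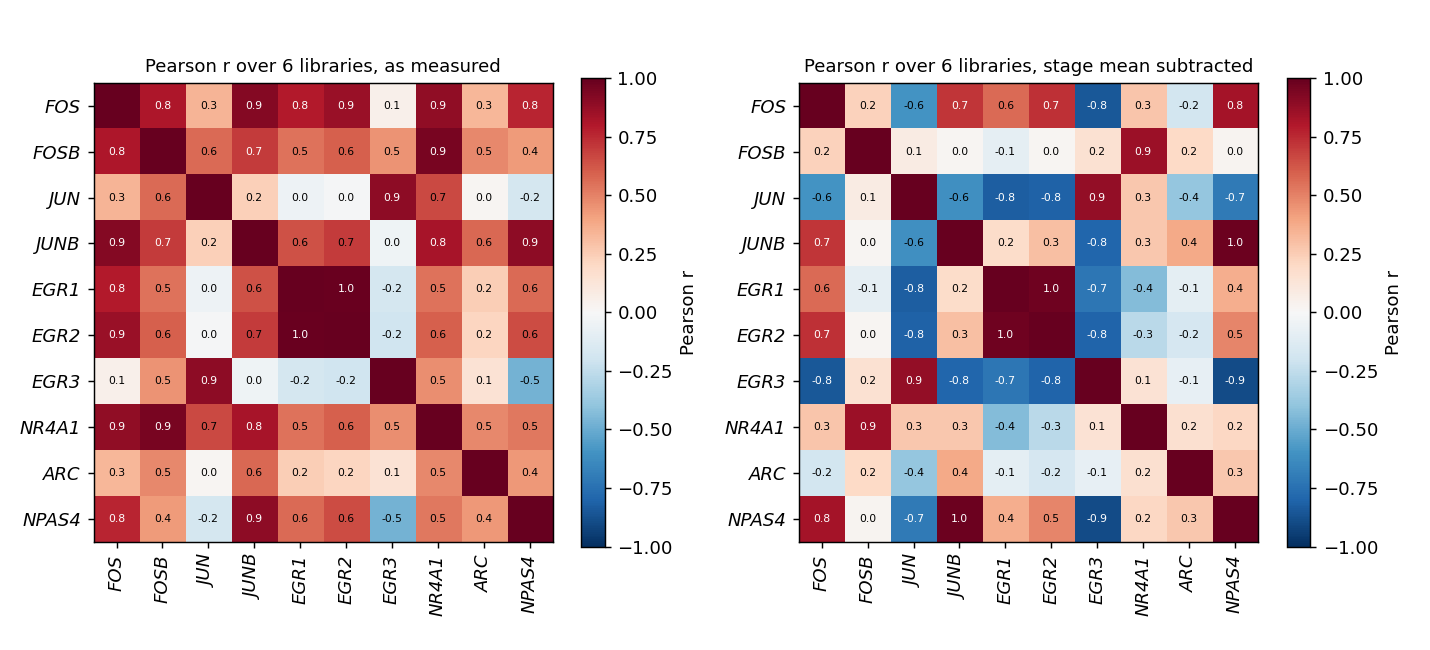
Pearson r of log2(FPKM + 1) over 6 libraries for each pair of genes, as measured (left) and with the stage mean of each gene subtracted (right), in colour from -1 (blue) to 1 (red), with the value in each cell and no value on the diagonal. The median of 0.54 on the left is 0.15 on the right, where JUN and EGR3 are negative against most of the others, while EGR1 with EGR2 and JUNB with NPAS4 remain near 1.

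The closest relatives outside the 10 genes were then examined, in lists of immediate early genes, of which JUND could not be matched. FOSL2, an AP-1 subunit, was at 4.89, 4.89 and 5.78 FPKM in the pubertal and 2.78, 2.79 and 3.20 FPKM in the prepubertal libraries, with a log2 difference of 0.66. NR4A3, a sister receptor of NR4A1, was at 1.97, 1.502 and 1.17 against 0.460, 0.759 and 0.755 FPKM, with a log2 difference of 0.61. The stages were apart in both. They were also apart in NR4A2, at 2.36 to 3.30 against 1.18 to 2.11 FPKM, and in EGR4, at 0.580 to 1.30 against 0.287 to 0.370 FPKM. FOSL1 overlapped, at 0.471 to 0.713 against 0.472 to 0.768 FPKM. Thus 4 of the 5 tested paralogs were higher without overlap (5.91% of all genes), and the same 4 were the ones at an unadjusted p under 0.05 in limma, with an adjusted p under 0.05 in 0.

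In the list of 18 other immediate early regulators of transcription and RNA, 16 had a log2 difference above 0 (median 0.23) and 6 were higher without overlap, with none lower. MAFF, a small Maf factor, was at 0.890 to 1.38 against 0.335 to 0.458 FPKM, GADD45B, a stress-inducible signalling protein, at 5.73 to 7.28 against 3.41 to 4.38 FPKM and CSRNP1, a nuclear factor, at 2.58 to 2.85 against 2.14 to 2.34 FPKM. NFIL3 and CREM, which encode bZIP factors, overlapped, with log2 differences of -0.14 and -0.03.

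Of 12 feedback and signalling genes, 10 were above 0 (median 0.24), 5 were higher without overlap and 1 was lower. DUSP1, a phosphatase that switches off MAP kinases, was at 27.97, 45.3 and 38.9 FPKM in the pubertal and 22.7, 17.7 and 23.1 FPKM in the prepubertal libraries, with a log2 difference of 0.77. SIK1, a kinase that restrains CREB coactivators, was at 10.4 to 15.7 against 6.97 to 9.03 FPKM, and DUSP5 at 0.248 to 0.585 against 0.0706 to 0.205 FPKM. RGS2, a regulator of G-protein signalling, was the one below, at 33.0 to 41.9 against 42.8 to 48.4 FPKM, beside 3.84% of all genes, and DUSP2 overlapped with a log2 difference of -0.29. Of 7 tested secreted immediate early genes, 6 were above 0 (median 0.19) and 2 were higher without overlap. The chemokine CXCL8 was at 0.0920 to 0.430 against 0.0678 to 0.0827 FPKM. Its prepubertal mean of 0.0735 FPKM was below the minimum of 0.1 FPKM. CXCL8 thus passed only through the pubertal libraries, and its direction was set by the filter.

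Over these 4 lists together, 36 of 42 genes were above 0, and 0 had an adjusted p under 0.05 in limma. Without overlap, 17 were higher (5.91% of all genes) and 1 was lower (3.84%). The 17 include CXCL8, whose direction was set by the filter. The scale of the libraries bears on the count, in alternatives chosen after seeing the data. The 17 became 12 after quantile normalization, beside 4.56% of all genes. They became 15 after centring each library on its median, beside 5.31%.

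**Figure D4:**
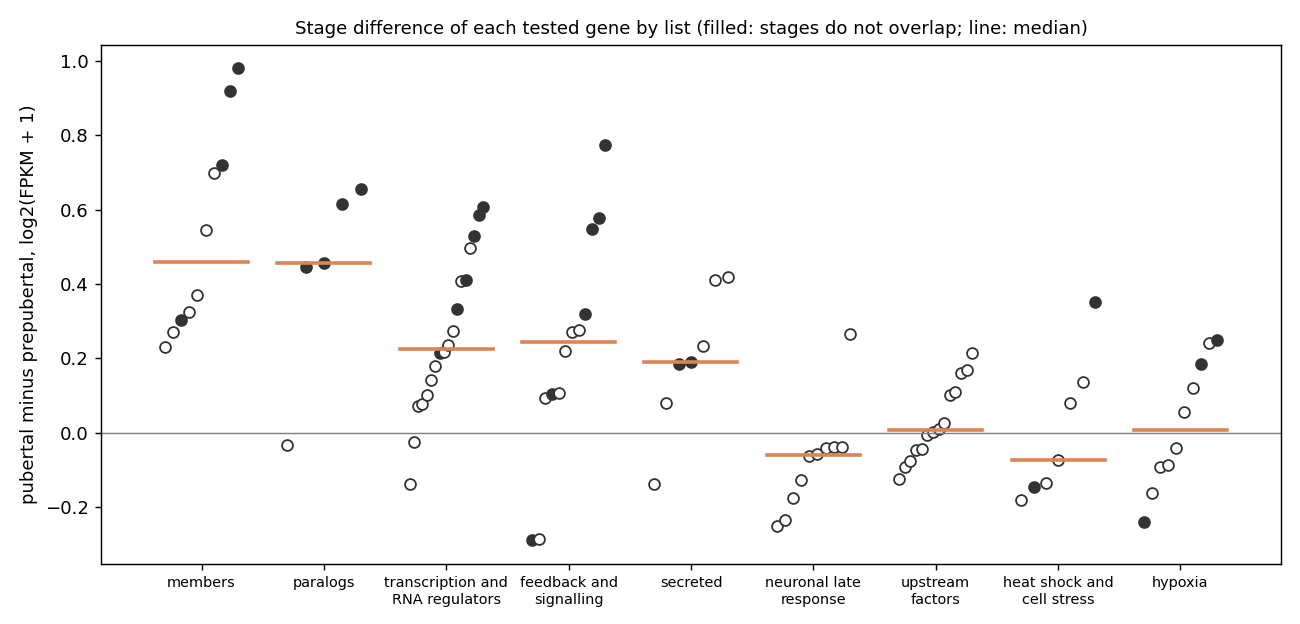
Difference between the stages in log2(FPKM + 1) (vertical axis, pubertal minus prepubertal) for each tested gene, by list, with filled points where the stages do not overlap and the orange line at the list's median. Medians are 0.46 for the 10 genes (members) and 0.46 for their paralogs, 0.23 for the regulators, 0.24 for feedback genes and 0.19 for secreted genes, and near 0 for late response genes, upstream factors, heat shock and hypoxia genes.

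No gene of the late response to neuronal activity or upstream of the immediate early genes was without overlap over all 6 libraries. Without prepubertal replicate 3, 4 of the 10 late response genes and 3 of the 14 upstream factors were lower without overlap, beside 7.89% of all genes. The upstream factors higher without overlap were 1 in that setting, beside 10.6% of all genes, and 1 without prepubertal replicate 2, beside 10.7%. Without pubertal replicate 1 they were 3, beside 14.7%, and 2 upstream factors were lower there, beside 18.2%. Of 10 late response genes, 1 was above 0 and the median was -0.06. BDNF, a neurotrophin that follows neuronal activity, was at 13.1 to 16.6 against 12.7 to 16.4 FPKM, VGF at 28.9 to 37.5 against 30.1 to 38.3 FPKM and SCG2, a secretory granule protein, at 591 to 811 against 765 to 870 FPKM. INHBA, an activin subunit, was the gene above 0, with a log2 difference of 0.27 and overlap. Of the 14 tested upstream factors, 8 were above 0 and the median was 0.0063. SRF, the factor that binds serum response elements, was at 7.004 to 8.40 against 7.84 to 8.54 FPKM and ELK4, one of its partners, at 6.59 to 7.84 against 5.72 to 6.73 FPKM.

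Stress genes were covered by further lists, of which the heat shock genes HSPA1A, HSPA1L and HSPB1 were not matched by symbol. Of 7 tested heat shock and cell stress genes, 1 was higher and 1 lower without overlap: the cochaperone BAG3, at 4.21 to 5.36 against 3.19 to 3.52 FPKM, and the constitutive chaperone HSPA8, at 1184 to 1394 against 1449 to 1452 FPKM. Of 10 hypoxia response genes, 2 were higher and 1 lower, among them the glucose transporter SLC2A1, at 65.6 to 75.5 against 58.6 to 59.3 FPKM, and BNIP3, at 63.5 to 66.6 against 73.7 to 83.3 FPKM. The medians were -0.07 and 0.0066. Over all genes tested, 5.91% were higher and 3.84% lower without overlap.

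Some markers of several other cell types were also higher in the pubertal libraries without overlap, beside 5.91% of all genes. Meningeal fibroblast markers were higher without overlap in 4 of 6, with a median log2 difference of 1.16 and a summed level of 161 to 317 FPKM in the pubertal and 101 to 136 FPKM in the prepubertal libraries. Endothelial and mural markers were so in 2 of 6 (112 to 211 against 85.1 to 106 FPKM) and pituitary markers in 3 of 8 (87.4 to 483 against 28.6 to 51.2 FPKM). Microglial markers were so in 2 of 7 (297 to 357 against 279 to 322 FPKM) and astrocyte markers in 1 of 6 (4201 to 4548 against 4304 to 4469 FPKM). Median log2 differences were 0.32 for endothelial and mural, 0.78 for pituitary, 0.07 for microglial and -0.02 for astrocyte markers. None of the markers in these lists was lower without overlap. GH1, FSHB, TSHB, PITX1 and POU1F1 of the pituitary list were listed at 0 in some libraries. PITX1 was among those higher without overlap. Its prepubertal mean was 0.0668 FPKM, so it passed the minimum of 0.1 FPKM only through the pubertal libraries. Of the 8 tested neuron markers none was without overlap, although 3 were lower without overlap after quantile normalization (5.47% of all genes), and all 8 had a log2 difference below 0 (median -0.13), with sums of 1318 to 1659 and 1519 to 1656 FPKM. No choroid plexus (6.60 to 331 against 7.51 to 58.7 FPKM), oligodendrocyte (1486 to 4664 against 1097 to 2290 FPKM, with MBP listed at 0 in some libraries), blood (13.6 to 18.3 against 11.6 to 15.7 FPKM), other forebrain (28.6 to 30.2 against 20.5 to 28.8 FPKM) or hypothalamic (14.9 to 19.4 against 14.1 to 21.7 FPKM) marker was without overlap. The part of these cell types in the values of the immediate early genes was not tested.

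Over the 13945 genes of at least 1 FPKM outside the lists, those most like the mean profile of the 10 genes over the 6 libraries were VEGFC (r = 0.99), NKAIN3 (0.98), POP4 (0.98), TAP1 (0.97), LOC102168959 (0.97), SUSD5 (0.97), STOX1 (0.96), DHX58 (0.96), UBE3B (0.96) and AKAP12 (0.96). The mean profile itself separates the stages, so genes chosen for likeness to it do so too, here by a ratio of means from 1.06 for STOX1 to 2.14 for LOC102168959. For FOS the most alike were WWP2 (0.99), KIAA0355 (0.97) and NUP188 (0.97). For ARC they were KCNJ6 (0.996), RNF144A (0.99) and UNC13C (0.98), all overlapping between the stages, and for NPAS4 LOC102173683 (0.99), RPL13 (0.99) and AURKC (0.98). Such values over 6 libraries describe likeness of profile and not of size, as RPL13 ranged only from 417 to 478 FPKM while NPAS4 ranged from 0.414 to 1.70 FPKM.

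The study lists 1 lncRNA locus within 10 kb of any of the genes, XLOC_2106997 near EGR1, with the single transcript TCONS_04322825 of 614 nt. Its first 150 bases are shown because it is the noncoding neighbour whose values can be set beside those of EGR1:

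TCONS_04322825: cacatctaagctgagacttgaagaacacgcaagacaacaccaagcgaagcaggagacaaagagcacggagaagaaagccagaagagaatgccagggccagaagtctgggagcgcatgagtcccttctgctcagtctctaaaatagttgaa

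The transcript was at 5.15, 5.73 and 4.95 FPKM in the pubertal and 8.44, 6.92 and 3.92 FPKM in the prepubertal libraries. The stages overlapped, since prepubertal replicate 3 was the lowest and prepubertal replicate 1 the highest of all. The means were 5.28 ± 0.407 and 6.43 ± 2.30 FPKM (SD, n = 3 each), with a log2 difference of -0.19, and r with EGR1 over the 6 libraries was -0.07.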

How the data were processed

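Total RNA of the hypothalamus was depleted of ribosomal RNA and sequenced in strand-specific paired-end libraries, 1 per goat, which were grouped by the stage in their labels. The authors deposited FPKM per transcript and library, which they scaled by transcript length and mapped fragments. The submitters' processing notes name Cufflinks 2.1.1 and Cuffdiff 2.1.1, and the genome build is not given in the sources used here. As FPKM give no counts, a count model was not used, nor was a counting interval or depth per value computed, and a value listed at 0 was not read as absence. The deposited comparison, which holds group FPKM, fold changes and p-values, served to pair transcripts with genes and for transcript lengths. All per-sample columns were used, leaving 0 aside.

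FPKM were summed by gene, and symbols came from a RefSeq table (ARS1.2), which matched 19083 of 20225 genes (94.4%) and was used for names only. Genes with a mean of at least 0.1 FPKM were tested (16397). All 10 immediate early genes passed, EGR3 only through 1 library. limma 3.58.1 (R 4.3.3, eBayes with a trend, two-sided) was fitted to log2(FPKM + 1) over all tested genes, adjusted by Benjamini-Hochberg at a threshold of 0.05, and was checked on simulated data. An exact permutation of 3 libraries against 3 cannot reach 0.05. The p-values measure the spread between these goats only. Pair correlations used exact permutation in Python 3.11.15 (scipy 1.17.1, numpy 2.4.6, pandas 2.3.3), and plots used matplotlib 3.10.9.

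The genes and the lists were chosen with earlier results of these data known. Besides the 10 genes and their paralogs, the rule named in each list the 3 genes most like and the 2 least like the mean z score of the 10 over the libraries, the 10 genes elsewhere most like it, the 3 most like each of FOS, ARC and NPAS4, and lncRNA loci listed by the study within 10 kb. Not all genes so named are printed, results that need a withheld item are not reported here, and marker lists are given mainly as sums. SIM1, NR5A1 and AVP were named after their values were seen. Alternatives were other pseudocounts, filters and scalings, no trend, the highest transcript only, a fit over transcripts, a replicate block, subtraction of stage means and leaving out each library.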

Additional observations from a re-analysis of the deposited data

How the results depend on the processing

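The log2 difference of the immediate early genes other than EGR3 was above 0 in 90 of 90 values under other pseudocounts, scalings or left-out libraries. No gene of all those tested had an adjusted p under 0.05 in limma with all libraries (846 at an unadjusted p under 0.05), against 1 with a replicate block and 0 to 4 with each library left out. The count at an unadjusted p under 0.05 ranged from 502 without prepubertal replicate 1 to 2223 without pubertal replicate 1. Of the 10 genes, the 5 at an unadjusted p under 0.05 became 3 after quantile normalization, 3 in a fit over transcripts and 3 to 6 with each library left out, with 3 without pubertal replicate 2 or prepubertal replicate 3. The 4 without overlap ranged from 4 to 7 in these fits, with 7 without pubertal replicate 3 (EGR3 is then not tested) or without prepubertal replicate 2, where 8.50% and 10.7% of all genes were higher without overlap. Their median log2 difference of 0.46 was 0.71 with a pseudocount of 0.1 and 0.72 with 0.01, as low values count for more there, and 0.33 to 0.58 with each library left out. The median r of 0.54 was 0.15 with the stage mean subtracted and 0.48 to 0.68 with each library left out, 0.68 being the value without pubertal replicate 3. Genes without overlap numbered 969 higher and 629 lower, 747 and 897 after quantile normalization and 871 and 730 after centring. In deviations from the stage means, same-numbered libraries had r of -0.03, -0.11 and 0.09. Not every library correlated best with its own number. Whether same-numbered libraries share more than a number was not tested. With the replicate block, limma gave 847 genes and 4 of the 10 at an unadjusted p under 0.05, and the median r was 0.68. The counts of the 4 other immediate early lists, 17 higher without overlap, were 17 to 22 with each library left out, and the share of all genes was then also larger, 11.8% in place of 5.91% in the setting with 22 (without pubertal replicate 2). Of the 8 neuron markers, 0 were lower without overlap with all libraries (3.84% of all genes). This became 2 without pubertal replicate 1 (18.2% of all genes), 2 without prepubertal replicate 2 (7.97%) and 1 without prepubertal replicate 3 (7.89%). The FPKM files hold no counts, and limits by depth for FOSB, EGR2, EGR3 and NPAS4 were not computed.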
